A study of Bos taurus with 42 samples.

Results

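The bovine miRNAs miR-23, miR-24 and miR-27 were followed through 42 libraries of embryos, oocytes and cultured cells. A row of the deposited table was taken when the first miRNA of its name was miR-23a, miR-23b, miR-24, miR-27a or miR-27b, on either arm of the hairpin and from any gene copy. Rows whose name records a base that differs from the annotation were left out. This gave 12 of the 12345 rows: 5 named for miR-23, 3 for miR-24 and 4 for miR-27. The table held 379 miRNA rows without such a mismatch. None of the 12 rows was named for a 5′ arm. 4 of them carry several annotations, so their reads could not be assigned to 1 gene. What separates a name with the arm (miR-23a-3p) from one without it (miR-23a) is not given in the sources used here, and the rows are kept apart and called by their names.

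These miRNAs are made in a pair of clusters, each transcribed as a single precursor RNA from which the separate miRNAs are cut. In the RefSeq order of genes on the cattle assembly ARS-UCD2.0, MIR23A, MIR27A and MIR24-2 follow each other directly and lie beside ZSWIM4, while MIR23B, MIR27B and MIR24-1 follow each other and lie beside FANCC. The a and b forms of miR-23 and of miR-27 share their seed, the stretch that pairs with target mRNAs. They differ near the 3′ end. Both clusters yield mature miR-24. In human and mouse cells the clusters are known from fibroblasts, endothelium, heart and muscle. There miR-24 represses cell cycle genes, miR-27 represses the adipocyte regulator PPARG, and miR-23 represses glutaminase.

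Embryos came from somatic cell nuclear transfer (NT) or from in vitro fertilisation (IVF). NT embryos were made by fusing a primary ear fibroblast of a Brahma Spanish cross bull with an enucleated oocyte. IVF embryos were made by fertilising in vitro matured oocytes with semen of a Holstein bull. Production method thus cannot be told apart from the bull used, its breed and the nuclear genotype of the embryos. NT and IVF embryos were collected as 2-cell embryos on day 2 (4 and 4 libraries), 8-cell embryos on day 3 (4 and 3), morulae on day 6 (3 and 4) and blastocysts on day 8 (4 and 3), in pools of 20. Cells derived from blastocysts gave 3 NT and 4 IVF libraries, and the labels give nothing further on their culture. The ear fibroblasts and the metaphase II oocytes gave 3 libraries each. Fertilised zygotes were cultured over cumulus cells. The labels mention 4 pools in one place and 3 in another, and do not say whether pools came from separate collections, so p-values measure the spread between these libraries.

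RNA shorter than 200 nt was sequenced on an Ion Proton, and the authors deposited size-factor-normalised, variance-stabilised log2 values. Whole reads were recovered from them, and levels are given here as normalised reads (reads divided by the library's size factor). The reads listed in the table ranged from 25119 to 3081186 per library, with a median of 608571.5, and miRNA reads from 796 to 2482312. A listed 0 may hide 1 read, since the smallest listed count was 2. Reads are not independent molecules, so intervals cover counting error only. IVF morula replicate 3 held 25119 listed reads and 27 reads of the 12 rows, of which 5 were detected. IVF morula replicate 1 stood apart in composition: 64.1% of its reads were miRNA, against 3.17% to 4.58% in the other 3 morula libraries. Of fibroblast replicate 1, 89.2% was tRNA-derived, and replicate 4 held 169079 of the reads of the 12 rows. The fibroblast label was checked against miRNAs known from mesenchymal cells (18 names, 36 rows), none of which was at 0 in all 3 fibroblast libraries. They took 31.6% to 40.3% of fibroblast miRNA reads, and 6 rows of epithelial miRNAs took 0% to 0.00137%. The mesenchymal share alone did not single out fibroblasts. It reached 41.99% in IVF 2-cell, 33.17% in NT 8-cell and 31.87% in IVF 8-cell libraries (medians 16.17%, 20.32% and 17.88%).

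Across the 42 libraries the row shared by miR-23b-3p and miR-10174-3p was read most, with 227433 reads, followed by miR-24-1-3p/miR-24-2-3p with 158968, miR-23a with 156127 and miR-27a-3p with 124283. The next were miR-23b-3p with 62758 reads, miR-24-3p with 43435, miR-23a-3p with 41757, miR-27b with 33061 and miR-27b-3p with 18904. The rows with the fewest reads were the miR-23 row shared by miR-23a-3p, miR-23b-3p and miR-10174-3p (8373 reads), miR-24-2-3p (8271) and the row shared by miR-27b-3p and miR-27a-3p (3792). All 12 rows passed the filter on low values.

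**Figure D1:**
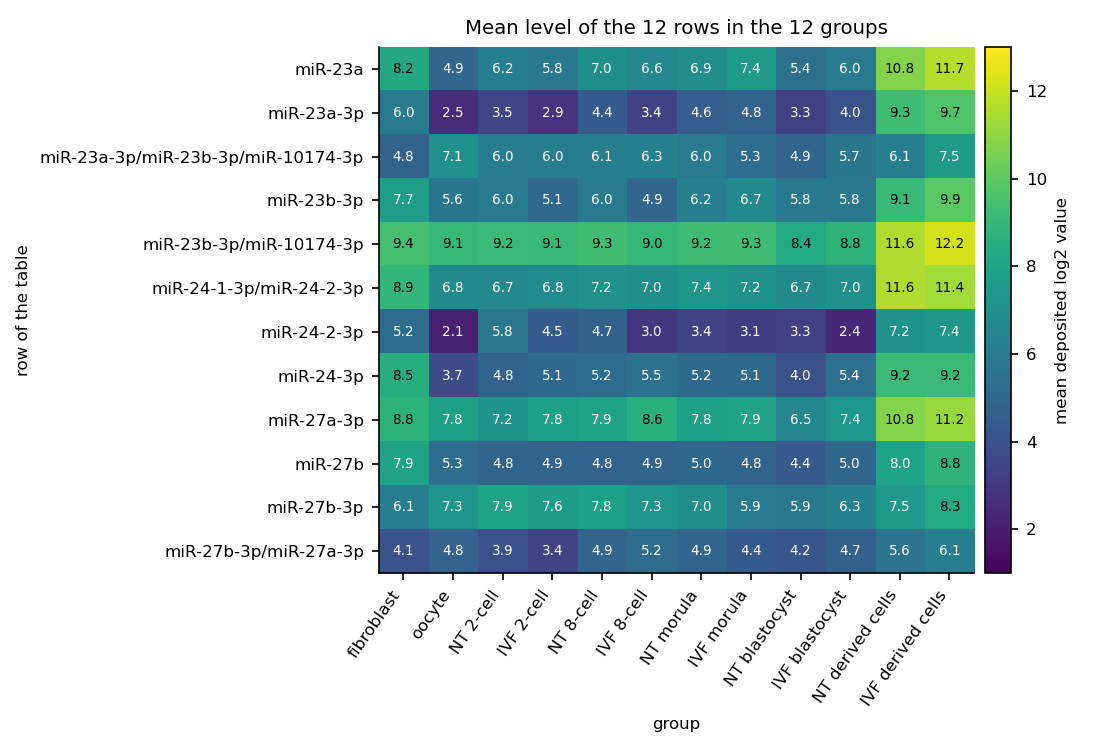
Mean deposited log2 value of each of the 12 rows (down the page) in each of the 12 groups (across), as a colour and a printed value. The highest mean of each row is that of NT or IVF derived cells, and for miR-27b-3p and the miR-23 row with 3 annotations an oocyte or early embryo group comes second.

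miR-24 is described first because its main row, miR-24-1-3p/miR-24-2-3p, counts the mature miRNA that both clusters yield. It held 2490, 2618 and 4160 normalised reads in NT derived cells, against 125.9, 74.8, 119.6 and 81.3 in NT blastocysts. In IVF derived cells it held 763, 1716, 4890 and 7179 normalised reads, against 148.3, 107.8 and 119.3 in IVF blastocysts. Every derived-cell library lay above every blastocyst library of its kind, and the IVF derived cells spread widely. In fibroblasts it held 311.6, 250.4 and 1478 normalised reads, against 186.2, 117.6 and 49.2 in oocytes, again without overlap. In normalised reads replicate 4 was far above the other 2 fibroblast libraries. As a share of miRNA reads, replicate 1 was the highest fibroblast library and replicate 3 lay within the oocyte range.

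In oocytes and embryos the same row stayed between 49.2 and 194.9 normalised reads in every library but 1. NT embryos held 99.6, 73.5, 130.7 and 89.8 normalised reads at the 2-cell stage, 107.9, 179.7, 146.3 and 132.5 at the 8-cell stage, and 178.2, 141.3 and 162.8 as morulae. IVF embryos held 52.2, 83.1, 172.6 and 161.0 normalised reads at the 2-cell stage, 78.9, 110.4 and 194.9 at the 8-cell stage, and 516.0, 54.3, 76.2 and 157.3 as morulae. The highest of these was IVF morula replicate 1, the library with the high miRNA share. Ordered by mean log2 value, the row stood highest in NT derived cells (11.56 ± 0.41, SD, n = 3) and IVF derived cells (11.35 ± 1.46, n = 4), then fibroblasts (8.95 ± 1.38, n = 3). NT morulae followed at 7.37 ± 0.16 (n = 3), and the lowest mean was that of NT 2-cell embryos at 6.67 ± 0.33 (n = 4). The derived cells and the fibroblasts overlapped with their neighbours in this order, as did the groups from NT morulae downward, while fibroblasts and NT morulae did not overlap. As a share of miRNA reads this order was not kept. The fibroblast mean was then above that of either derived-cell group, and fibroblasts and NT morulae overlapped.

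miR-24-3p followed the same line at a lower level. It held 529.1, 572.9 and 653.9 normalised reads in NT derived cells, against 20.0, 4.94, 12.98 and 10.0 in NT blastocysts. The IVF derived cells held 169.3, 1108, 543.1 and 990.7 normalised reads, against 42.4, 45.7 and 26.7 in IVF blastocysts. miR-24-2-3p, the row named for the copy in the miR-23a cluster alone, held 138.2, 136.0 and 136.9 normalised reads in NT derived cells, against 9.17, 6.92, 3.39 and 2.94 in NT blastocysts. In the IVF pair it held 78.8, 116.0, 224.9 and 308.1 normalised reads in derived cells, against 2.23, 0 and 3.93 in blastocysts. Its blastocyst values rest on 5 to 21 reads per NT library and 0 to 9 per IVF library. A mismatched form of 297 reads is named miR-24-1-3p(23G->T)/miR-24-2-3p, so the names of the copies differ at position 23. Whether the row miR-24-2-3p measures the output of that copy was not tested.

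Among the miR-23 rows, miR-23a had the most reads of those named for the a copy. It held 1318, 1701 and 2270 normalised reads in NT derived cells, against 58.4, 25.7, 43.4 and 31.2 in NT blastocysts, and 1677, 3731, 4680 and 3691 in IVF derived cells, against 65.8, 51.6 and 55.9 in IVF blastocysts. Fibroblast replicate 4 (2791) and IVF morula replicate 1 (2760) reached these levels, and no other library outside the derived cells exceeded 173.4. Fibroblasts 1 and 3 held 53.0 and 157.9 normalised reads, and oocytes 40.3, 14.7 and 28.1. The 2-cell embryos held 60.9, 40.1, 86.0 and 102.9 in NT and 26.1, 30.2, 155.1 and 48.8 in IVF, with overlap.

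miR-23a-3p showed the same separation at lower depth, with 472.4, 671.7 and 763.8 normalised reads in NT derived cells, against 8.34, 6.26, 6.77 and 1.77 in NT blastocysts. IVF derived cells held 333.5, 901.8, 1283 and 1201 normalised reads of it, against 12.3, 15.2 and 7.87 in IVF blastocysts. miR-23b-3p held 529.1, 496.1 and 643.0 normalised reads in NT derived cells, against 83.4, 57.3, 46.3 and 32.4 in NT blastocysts. The lowest derived-cell library was thus above the highest blastocyst library for each of these rows. In IVF derived cells miR-23b-3p held 389.2, 2107, 1005 and 1013 normalised reads, against 63.6, 55.1 and 38.5 in IVF blastocysts.

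The row shared by miR-23b-3p and miR-10174-3p was the most abundant of the 12 in oocytes and early embryos. It held 2662, 2745 and 3849 normalised reads in NT derived cells, against 361.9, 327.7, 380.2 and 239.6 in NT blastocysts, and 1979, 4650, 7209 and 6732 in IVF derived cells, against 456.1, 439.5 and 396.0 in IVF blastocysts. Oocytes held 760.0, 563.5 and 341.0 normalised reads, more than any blastocyst library in 2 of 3 cases. The miR-23 row with 3 annotations behaved otherwise: it held 34.4, 83.2 and 90.6 normalised reads in NT derived cells, against 19.2, 9.22, 34.4 and 55.4 in NT blastocysts, with overlap. Its IVF derived cells (167.2, 35.6, 452.0 and 311.1) and IVF blastocysts (62.4, 28.1 and 59.0) overlapped as well.

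The miR-27 rows divided. miR-27a-3p held 924.1, 1925 and 2977 normalised reads in NT derived cells, against 101.7, 32.9, 188.4 and 89.5 in NT blastocysts, and 899.1, 1460, 4742 and 4227 in IVF derived cells, against 156.1, 103.1 and 264.4 in IVF blastocysts. miR-27b held 207.5, 219.2 and 335.1 normalised reads in NT derived cells, against 15.8, 10.5, 31.6 and 10.6 in NT blastocysts. Its IVF derived cells held 244.1, 1314, 250.4 and 450.6, against 49.1, 17.6 and 19.7 in IVF blastocysts. No library of a derived-cell group overlapped its blastocysts in these rows.

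miR-27b-3p moved less: it held 76.2, 251.4 and 275.7 normalised reads in NT derived cells, against 49.2, 58.0, 66.6 and 41.2 in NT blastocysts, and 142.9, 252.1, 736.4 and 371.7 in IVF derived cells, against 126.0, 45.7 and 64.2 in IVF blastocysts. In normalised reads its early embryos were at derived-cell levels, with 348.5, 320.7, 123.9 and 239.4 in NT 2-cell embryos and 328.8, 223.0, 95.1 and 204.9 in IVF 2-cell embryos. Oocytes held 151.0, 196.0 and 130.1 normalised reads. As a share of miRNA reads, miR-27b-3p was higher in every NT 2-cell than in every NT derived-cell library. The IVF groups overlapped in this share, with the higher mean in 2-cell embryos. The row shared by miR-27b-3p and miR-27a-3p held 18.3, 54.97 and 75.3 normalised reads in NT derived cells, against 14.2, 3.29, 26.0 and 20.0 in NT blastocysts, with overlap.

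**Figure D2:**
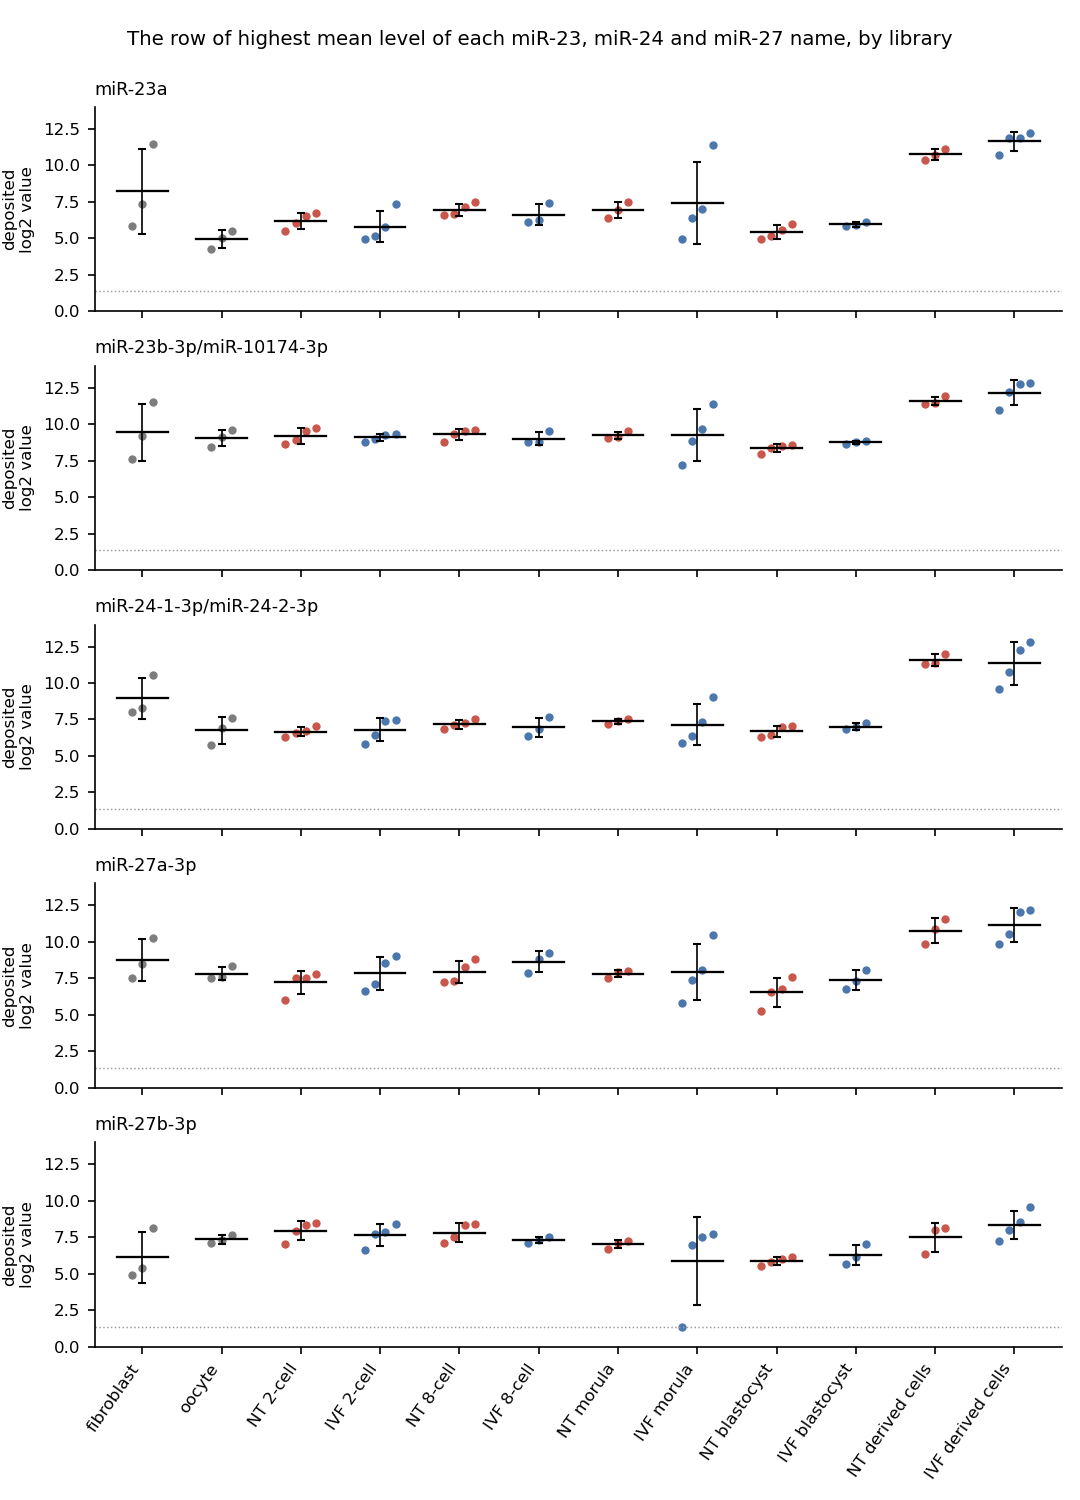
Deposited log2 value (vertical axis) of the row with the highest mean level for each of miR-23a, miR-23b, miR-24, miR-27a and miR-27b in the 12 groups; points are libraries (red NT, blue IVF, grey fibroblasts and oocytes), bars the mean and whiskers 1 SD. The dotted line is the lowest deposited value, 1.3675, which stands for 0 listed reads. Derived cells stand above the blastocysts of the same production method in every panel, by least for miR-27b-3p. Single fibroblast and IVF morula libraries stand far from the rest of their group.

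Derived cells were compared with the blastocysts of the same production method. The comparison asks how the small RNAs of cells in culture differ from those of embryos at the stage they were derived from. In NT, 8 of the 12 rows were called higher and 0 lower (limma, Benjamini-Hochberg adjusted p below 0.05 over 12039 tested rows), where 0.988% of all tested rows and 22.5% of the miRNA rows without a mismatch were called higher. The median difference over the 12 rows was 3.75 on the deposited log2 scale. miR-23a-3p rose by 6.00 ± 1.00 (SE, adjusted p = 2.3e-05 by limma) and miR-23a by 5.33 ± 1.00 (adjusted p = 0.00019). Of the miR-24 rows, miR-24-3p rose by 5.23 ± 0.94, miR-24-1-3p/miR-24-2-3p by 4.87 ± 0.93 and miR-24-2-3p by 3.88 ± 0.82. miR-27a-3p rose by 4.24 ± 1.01, miR-27b by 3.63 ± 0.95 and miR-23b-3p by 3.29 ± 0.91 (largest adjusted p of these 3, 0.022).

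In IVF, 9 rows were called higher and 0 lower, where 0.93% of all tested rows and 20.4% of the miRNA rows without a mismatch were called higher, and the median over the 12 rows was 3.80. The largest differences were those of miR-23a (5.69 ± 1.00, adjusted p = 7.4e-05 by limma), miR-23a-3p (5.68 ± 1.00) and miR-24-2-3p (5.00 ± 0.82). miR-24-1-3p/miR-24-2-3p rose by 4.34 ± 0.93, miR-23b-3p by 4.09 ± 0.91, miR-27b by 3.83 ± 0.95, miR-27a-3p by 3.76 ± 1.01 and miR-24-3p by 3.75 ± 0.94. The ninth, miR-23b-3p/miR-10174-3p, rose by 3.40 ± 1.07 (adjusted p = 0.043) in IVF. In NT its difference was 3.22 ± 1.07, which did not pass (adjusted p = 0.094). The rows that passed in neither pair were miR-27b-3p (1.64 in NT, 2.06 in IVF), the miR-23 row with 3 annotations (1.21 in NT, 1.77 in IVF) and the row shared by miR-27b-3p and miR-27a-3p (1.40 in NT, 1.48 in IVF).

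Without any test, 10 of the 12 rows lay higher in every derived-cell library than in every blastocyst library, in NT (2.63% of all tested rows) and in IVF (1.79%). The difference between the NT and the IVF change was called for 0 of the 12 rows and 0.0% of all rows. No row had an unadjusted p below 0.05, voom also called 0, the median of the difference was -0.20, and the largest was that of miR-24-3p at 1.47 ± 1.33 (adjusted p = 1 by limma). The counts depend on the settings: with library weights estimated from the spread of each library, 0 rows were called in either pair although their medians were 3.77 in NT and 3.81 in IVF, and the estimation of these weights stopped before its tolerance was reached. Without NT derived-cell replicate 4 the NT count was 5, and without IVF blastocyst replicate 3 the IVF count was 6. Median centring gave 6 in NT and 8 in IVF.

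**Figure D3:**
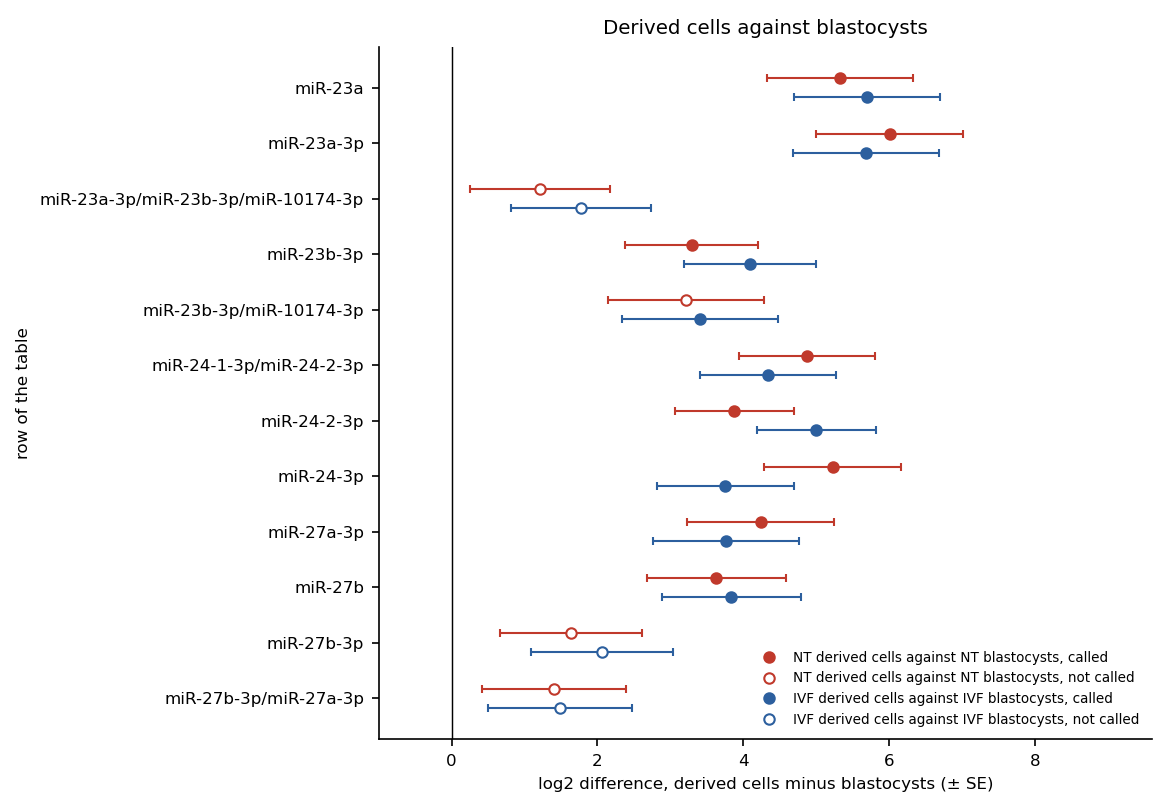
Difference in deposited log2 value between derived cells and blastocysts for each of the 12 rows (down the page), with 1 SE, for NT (red, above) and IVF (blue, below); filled points passed the limma test and open points did not. All differences are above 0 on this scale, between 1.21 and 6.00 in NT and between 1.48 and 5.69 in IVF; relative to miRNA reads the 3 lowest rows of each pair fall below 0.

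The scale matters for these differences, because miRNA took 66.0% to 78.9% of listed reads in NT derived cells, against 11.7% to 20.3% in NT blastocysts, and 45.1% to 81.8% in IVF derived cells, against 9.88% to 18.0% in IVF blastocysts. In a count model of miRNA rows alone, with miRNA read totals as library sizes (limma's voom, 582 rows, chosen after seeing the data), the median miRNA row was lower in derived cells by -1.40 in NT and -1.78 in IVF. The median over the 12 rows was 1.497 in NT and 1.538 in IVF. On this scale 6 rows were called higher in NT, where 13.4% of miRNA rows were: miR-23a-3p (4.20), miR-24-3p (3.099), miR-23a (2.85), miR-24-1-3p/miR-24-2-3p (2.26), miR-24-2-3p (1.97) and miR-27a-3p (1.70). In IVF 5 were, where 8.42% of miRNA rows were: miR-24-2-3p (3.90), miR-23a-3p (3.80), miR-23a (3.41), miR-24-1-3p/miR-24-2-3p (2.00) and miR-27a-3p (1.34). The 3 rows that did not pass on the deposited scale had negative values here in both pairs: -0.85 in NT and -0.36 in IVF for miR-27b-3p, -1.17 and -0.68 for the miR-23 row with 3 annotations, and -0.76 and -0.82 for the row shared by miR-27b-3p and miR-27a-3p. None of these 3 was called.

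Marker miRNAs of other cell types moved with this contrast. The mesenchymal list took 31.2% to 40.2% of miRNA reads in NT derived cells, against 3.76% to 8.36% in NT blastocysts. In IVF it took 28.2% to 40.2% in derived cells, against 9.47% to 12.5% in blastocysts. The list was not specific to cultured cells, and its highest share was 41.99% in IVF 2-cell and 33.17% in NT 8-cell embryos. Of its 36 rows, 22 rose in NT (median 4.31) and 23 in IVF (median 4.13), among them miR-199a-3p, a miRNA of mesenchymal cells, by 8.10 in NT and 6.57 in IVF. Of the 6 epithelial rows, 4 rose and 1 fell in NT (median 5.00), and 1 rose and 1 fell in IVF (median 2.21). These took 0.831% to 1.90% of miRNA reads in NT derived cells and 0.303% to 0.400% in NT blastocysts. In IVF they took 0.00256% to 1.89% in derived cells and 0.526% to 0.631% in blastocysts, and the lowest derived-cell library, replicate 2, had 4 of the 6 rows at 0. Of the 9 blood rows and the 4 muscle rows 0 were called in either pair. Of the 2 endothelial rows (miR-126) 2 rose in IVF and 0 in NT, a difference that was not tested. The only row of the miR-302 and miR-371 list, a marker of pluripotent cells, fell by 5.30 in NT and 4.57 in IVF. The part of these cell types in the rise of miR-23, miR-24 and miR-27 was not tested, and in such bulk samples fewer cells of a type and less RNA per cell cannot be told apart.

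As a share of all miRNA reads, the 12 rows together took 4.56%, 6.20% and 5.09% in NT derived cells, against 2.50%, 2.07%, 1.92% and 1.98% in NT blastocysts. In IVF they took 7.94%, 15.1%, 6.84% and 6.37% in derived cells, against 2.41%, 3.04% and 3.02% in blastocysts. The shares of derived cells and blastocysts did not overlap in either pair, and every NT derived-cell library was below every IVF one. IVF derived-cell replicate 2, with the highest share, is the library almost without epithelial miRNAs. Fibroblasts took 8.81%, 1.69% and 15.5%, against 2.95%, 2.38% and 3.00% in oocytes.

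The shares of 2-cell embryos lay below those of every derived-cell library. Some 8-cell and morula libraries, of NT and of IVF, lay within the range of the NT derived cells, and none reached that of the IVF derived cells. NT 2-cell embryos took 3.87%, 4.44%, 3.78% and 3.45% of miRNA reads, against 2.79%, 3.31%, 3.12% and 2.79% in IVF 2-cell embryos, so the NT libraries all lay above the IVF ones. At the 8-cell stage the shares were 3.94%, 5.55%, 3.83% and 4.37% in NT and 3.35%, 4.53% and 6.10% in IVF. Morulae took 4.76%, 4.60% and 3.59% in NT and 6.12%, 4.15%, 3.39% and 3.58% in IVF. NT and IVF overlapped at these 2 stages. No test was made of the summed share.

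**Figure D4:**
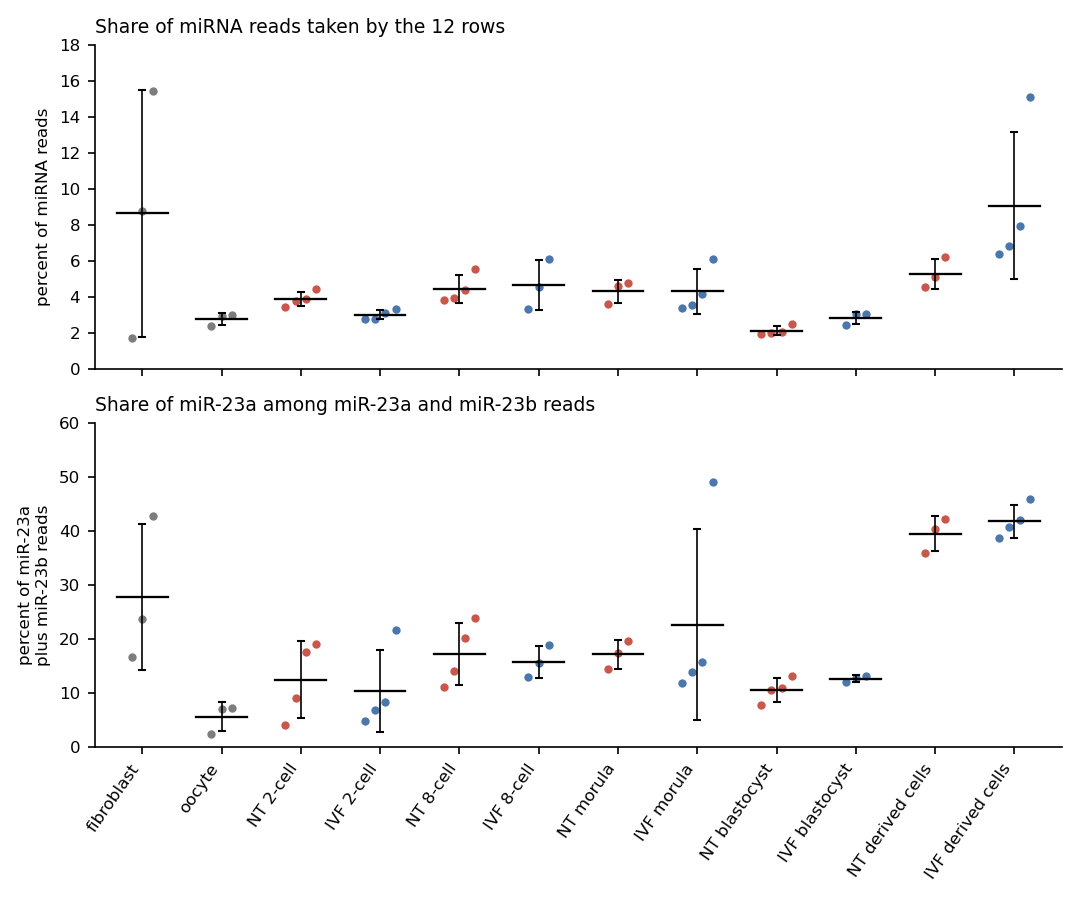
Upper panel, share of miRNA reads taken by the 12 rows; lower panel, share of miR-23a among reads of miR-23a and miR-23b rows, with the row shared by miR-23b-3p and miR-10174-3p counted as miR-23b; both in percent, by group, with libraries as points (red NT, blue IVF, grey fibroblasts and oocytes), bars as means and whiskers as 1 SD. Derived cells take 4.56% to 15.1% against 1.92% to 3.04% in blastocysts, and some 8-cell and morula libraries lie within the NT derived-cell range. The miR-23a share of derived cells, 36.0% to 45.9%, is reached outside them by 1 fibroblast and 1 IVF morula library. Without the shared row the derived cells and 8-cell embryos overlap in this share.

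The make-up of the summed reads differed between groups. miR-24 rows made up 29.0% to 33.6% of them in NT derived cells, against 14.03% to 17.88% in NT blastocysts, without overlap. In IVF miR-24 made up 14.7% to 31.9% in derived cells, against 13.8% to 16.5% in blastocysts, with overlap. In fibroblasts it made up 19.8% to 44.0%, against 6.59% to 10.97% in oocytes. miR-27 rows made up 13.1% to 22.6% in NT derived cells and 17.5% to 22.7% in IVF derived cells. Their share was 34.0% to 37.1% in oocytes and 38.2% to 46.9% in IVF 8-cell embryos, the highest of any group. miR-23 rows made up the largest part in every library except fibroblast replicate 1 and IVF 8-cell replicate 3, where miR-24 (44.0%) and miR-27 (46.9%) did.

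The share of the a copy was taken among reads of rows whose miR-23 or miR-27 names all carry the same letter. For miR-23 the b rows include the one shared with miR-10174-3p, whose 227433 reads are 78.4% of the reads counted as miR-23b. With it the miR-23a share was 36.0%, 42.3% and 40.3% in NT derived cells, against 13.03%, 7.66%, 10.5% and 10.8% in NT blastocysts. It was 45.9%, 40.7%, 42.1% and 38.7% in IVF derived cells, against 13.1%, 11.9% and 12.8% in IVF blastocysts. Fibroblasts gave 16.7%, 23.8% and 42.8%, against 7.03%, 2.42% and 7.08% in oocytes. The derived cells thus carried a higher share of miR-23a than any blastocyst, with NT and IVF overlapping, and the fibroblasts a higher share than any oocyte. IVF morula replicate 1 gave 49.1% and the other 3 morula libraries of IVF 11.8% to 15.7%.

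The level of this share rests on that shared row. Without it, a choice made after seeing the data, miR-23a made up 77.2% to 82.7% in NT derived cells, against 35.8% to 52.05% in NT blastocysts, and 68.7% to 85.6% in IVF derived cells, against 54.8% to 62.4% in IVF blastocysts. Derived cells and blastocysts remained apart, while 8-cell embryos, at 58.9% to 82.45% in NT and 72.2% to 83.7% in IVF, overlapped the derived cells. Fibroblasts gave 36.9%, 78.6% and 68.3%, against 38.2% and 50% in oocyte replicates 1 and 4, with overlap, and oocyte replicate 3 held too few reads for a share (under 10).

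The share also depends on how mismatched forms are read. 13 rows of these miRNAs carry a mismatch and were left out above; they hold 14.3% of the reads of the 12 and these rows together. The largest, with 128055 reads, is annotated to miR-23b-3p with the change A19T, positions counted from 1 as in the table's own names. The reverse change, T19A, is recorded for miR-23a-3p in a row of 1920 reads shared with miR-23b-3p, so the 2 names differ at that position in the table. Counted by the base at position 19, with the shared row among the b reads, the miR-23a share was 49.3% to 56.7% in NT derived cells, against 12.9% to 22.1% in NT blastocysts, and 51.8% to 57.9% in IVF derived cells, against 18.4% to 24.4% in IVF blastocysts. Fibroblasts gave 26.5% to 52.9%, against 10.1% to 15.8% in oocytes. Derived cells lay above blastocysts with each of these ways of counting. For miR-27 the change C19T of miR-27a-3p had 10247 reads.

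For miR-27 the share of a was 76.5%, 80.4% and 83.0% in NT derived cells, against 61.0%, 32.5%, 65.8% and 63.3% in NT blastocysts, without overlap. In IVF it was 69.9%, 48.3%, 82.8% and 83.7% in derived cells, against 47.1%, 62.0% and 75.9% in blastocysts, with overlap. Fibroblasts gave 54.8%, 65.6% and 54.9%, against 51.6%, 43.9% and 58.1% in oocytes. The 2-cell embryos ranged from 13.6% to 61.6% in NT and from 26.5% to 82.2% in IVF, with overlap.

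Fibroblasts were compared with oocytes, the nuclear and the cytoplasmic source of an NT embryo. 5 of the 12 rows were called higher and 0 lower, where 1.36% of all tested rows and 13.1% of the miRNA rows without a mismatch were called higher, and 41.8% of all rows were called in either direction. The median over the 12 rows was 2.14, against -0.97 over all tested rows. miR-24-3p rose most, by 4.76 ± 1.01 (adjusted p = 5.3e-05 by limma), with 202.7, 243.9 and 900.4 normalised reads in fibroblasts, against 30.2, 0 and 21.1 in oocytes. miR-23a-3p rose by 3.42 ± 1.07, miR-23a by 3.27 ± 1.07, miR-24-2-3p by 3.15 ± 0.88 and miR-27b by 2.62 ± 1.02 (adjusted p = 0.031). Of these, miR-23a-3p and miR-27b overlapped between the groups. On the deposited scale 4 rows lay higher in every fibroblast than in every oocyte library, as did 1.56% of all tested rows. As a share of miRNA reads, miR-24-1-3p/miR-24-2-3p and miR-24-2-3p overlapped between these groups, through fibroblast replicate 3. The row furthest in the other direction was the miR-23 row with 3 annotations (-2.23), which did not pass. Marker miRNAs moved with this contrast too. Of the 36 mesenchymal rows 15 rose and 5 fell (median 1.85), and the list took 31.6% to 40.3% of miRNA reads in fibroblasts, against 10.8% to 19.6% in oocytes. All 6 epithelial rows fell (median -4.09), at 0% to 0.00137% of miRNA reads in fibroblasts, against 1.57% to 2.45% in oocytes, and 4 of the 6 were at 0 in all fibroblast libraries. Their part in the differences of the 12 rows was not tested. The calls rest in part on single libraries: 2 rows were called without fibroblast replicate 4, 3 without oocyte replicate 3 and 3 without oocyte replicate 4. With library weights 0 were called, and with miRNA read totals 5 were higher, where 6.53% of miRNA rows were. On that scale 1, the miR-23 row with 3 annotations, was lower (-2.78), as were 40.7% of miRNA rows, whose median was -2.60.

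Derived cells were also set against the fibroblasts. In NT 0 of 12 rows were called, where 0.673% of all tested rows were called in either direction. The differences on the deposited scale were all above 0, with a median of 1.70, and the largest was that of miR-23a-3p at 3.33 ± 1.07 (adjusted p = 0.22 by limma); 4 had an unadjusted p below 0.05. On this scale miR-24-1-3p/miR-24-2-3p and miR-24-2-3p lay higher in every NT derived-cell library than in every fibroblast library, as did 2.79% of all tested rows. As a share of miRNA reads neither row separated the groups. For each of them fibroblast replicates 1 and 4 then lay above every NT derived-cell library, and replicate 3 below. In IVF 0 were called as well, where 0.307% of all tested rows were called, with a median of 2.30 and 10 unadjusted p-values below 0.05. The largest was again miR-23a-3p at 3.73 ± 1.00 (adjusted p = 0.088), and no row lay higher in every IVF derived-cell library than in every fibroblast library, which 1.01% of all tested rows did. Fibroblast replicate 4 lay within the range of the 7 derived-cell libraries for 10 of the 12 rows, replicate 1 for 1 and replicate 3 for 3. For miR-23b-3p and miR-27b, IVF derived-cell replicate 2 was the only derived-cell library above fibroblast replicate 4. Without replicate 4, 1 row was called in NT and 2 in IVF, and with library weights 6 and 9 were called higher. With miRNA read totals the direction was not kept: the median over the 12 rows was 0.012 in NT, with 6 rows below 0, and 0.66 in IVF, with 2 below 0. miR-27b was then lower in NT (-2.03), as were 8.59% of miRNA rows, and miR-24-3p stood at -1.25 in NT and -1.09 in IVF, which did not pass. Of the 36 mesenchymal rows 6 rose in NT and 2 in IVF, and of the 6 epithelial rows 4 rose in each, and the part of either in these differences was not tested. The NT comparisons share the fibroblast libraries with the IVF ones and with the comparison with oocytes.

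NT and IVF were compared at each stage, which addresses how nuclear transfer embryos differ from fertilised ones. None of the 12 rows was called at any of the 5 stages by limma, nor by voom on the recovered reads. An unadjusted p below 0.05 was reached by 1 row at the 8-cell stage and by 0 at the other 4 stages. Of all tested rows, 2.28% were called in either direction at the 2-cell stage, 0.00831% at the 8-cell stage, 0.0% in morulae, 0.00831% in blastocysts and 0.0% in derived cells. The median differences of the 12 rows were 0.20, 0.25, 0.14, -0.51 and -0.57 in that order, against 0.34, 0.33 and 0.31 over all tested rows at the first 3 stages. The signs at those 3 stages were not stable: median centring gave -0.14 at the 2-cell and -0.60 at the 8-cell stage, and quantile normalisation -0.036, -0.19 and -0.15. At the 2-cell stage the median was -0.020 without IVF replicate 2. In morulae it was 1.02 without IVF replicate 1, -0.76 without IVF replicate 3 and -2.58 with library weights. The largest at each stage were miR-24-2-3p at the 2-cell stage (1.28 ± 0.76, adjusted p = 0.43 by limma) and at the 8-cell stage (1.79 ± 0.82, adjusted p = 0.59), miR-27b-3p in morulae (1.12 ± 0.97), miR-24-3p in blastocysts (-1.43 ± 0.94) and the miR-23 row with 3 annotations in derived cells (-1.36 ± 0.96). Tests that miss the threshold at these SEs do not show that NT and IVF had the same levels.

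A few rows separated NT from IVF library by library without passing. At the 8-cell stage miR-24-2-3p held 27.4, 7.81, 51.2 and 18.1 normalised reads in NT, against 4.51, 2.37 and 3.70 in IVF, from 5 to 21 reads in NT and 2 to 7 in IVF. miR-23a-3p held 12.2, 28.1, 14.6 and 13.3 in NT 8-cell embryos, against 9.02, 2.37 and 7.92 in IVF ones. Of all tested rows, 3.26% were higher in every NT 8-cell library. In blastocysts miR-24-3p and miR-23b-3p/miR-10174-3p were lower in every NT than in every IVF library, as were 2.63% of all tested rows.

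Along development, miR-24-2-3p was the one row whose step was called. NT 2-cell embryos gave 10, 14, 16 and 34 reads (55.3, 93.5, 27.5 and 40.7 normalised reads), and oocytes 0, 0 and 2 reads (0, 0 and 7.03 normalised reads). Summed reads divided by summed size factors gave 14.5 times as much in NT 2-cell embryos as in oocytes, with a 95% exact interval of 3.89 to 122.4. The interval covers counting error only and takes the oocyte zeros as 0 reads. Each listed 0 may hide 1 read, which would lower the ratio. IVF 2-cell embryos gave 7, 4, 4 and 5 reads (36.5, 15.1, 5.85 and 24.4 normalised reads), and the same ratio to oocytes was 5.11 with an interval of 1.24 to 45.1. The call stood for NT (adjusted p = 0.0057 by limma; 1.85% of all tested rows were called higher, and 1.52% lay above every oocyte library in each NT library) and not for IVF (adjusted p = 0.090; 0.789%), and both comparisons share the oocytes. A count model called 0 rows in NT, as did quantile normalisation and library weights. All 12345 listed rows were detected in NT 2-cell replicate 4. The listing thus favours NT 2-cell embryos over oocytes, in this call and in its shares of all tested rows. The call remained without that replicate, where the same listing still applied. In the same comparison 1 of the 9 blood rows rose (miR-451, by 3.095, adjusted p = 0.0237 by limma). Of the 4 muscle rows, 1 rose (miR-133a-2-3p/miR-133a-1-3p, by 3.431, adjusted p = 0.0257 by limma). All muscle rows were at 0 in oocytes. No mesenchymal, epithelial, endothelial or miR-302 row was called. Whether the rise of miR-24-2-3p shares a source with these rows was not tested. In NT miR-24-2-3p was detected at each later stage. It was lower in every NT morula library (3.83, 6.62 and 7.36 normalised reads) than in every NT 8-cell library, as were 16.1% of all tested rows, and lower in every IVF 8-cell library than in every IVF 2-cell library, as were 1.97%, and neither step passed the test.

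No other step of development was called for any of the 12 rows by limma or by voom, and from the 2-cell stage to the blastocyst 0 had an unadjusted p below 0.05. Of all tested rows, 0.498% were called between NT 8-cell and NT 2-cell embryos and 6.35% between NT morulae and NT 8-cell embryos. In IVF, 0.116% were called between 8-cell and 2-cell embryos, 12.8% between morulae and 8-cell embryos and 0.00831% between blastocysts and morulae. The difference between an NT and an IVF step was called for none of the 12 rows, where 0.0581% of all tested rows were called between the 8-cell and 2-cell stages and 0.0% at the 2 later steps. Between NT blastocysts and NT morulae 1.38% of all tested rows were called. All 12 rows had negative differences there, with a median of -0.98, against -0.39 over all tested rows, and 6 lay lower in every blastocyst library, as did 20.1% of all tested rows. The largest was that of miR-23a at -1.50 ± 1.00 (adjusted p = 0.47 by limma). In a fit of these 2 groups alone, 5 rows were called lower, and under quantile normalisation the median over the 12 rows turned to 0.44 with 0 called. None of the 12 rows separated IVF blastocysts from IVF morulae library by library, and leaving out IVF morula replicates 1 and 3 left 0 calls. Blastocysts against oocytes gave 0 calls for NT, where 40.4% of all tested rows were called and 1 of the 12 had an unadjusted p below 0.05, and 0 for IVF, where 35.4% were called and 0 of the 12 had one.

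The rows differed in how alike they ran across the 12 group means, which share library scaling and, in part, oocytes and cells. With miR-24-1-3p/miR-24-2-3p, Pearson's r was 0.31 for miR-27b-3p, 0.32 for the miR-23 row with 3 annotations, 0.68 for the row shared by miR-27b-3p and miR-27a-3p and 0.80 for miR-24-2-3p. The other 7 rows lay between 0.939 and 0.978. miR-27b-3p and the miR-23 row with 3 annotations ran together (r = 0.81), so the rows that depart are from both families. Of the other 361 miRNA rows ranked by this measure, the most alike to miR-24-1-3p/miR-24-2-3p were miR-199a-3p (r = 0.982), miR-125b (0.980), miR-199b-3p/miR-199a-2-3p/miR-199a-1-3p (0.979), miR-199a-2-5p/miR-199a-1-5p (0.977) and miR-542-3p (0.967). The miR-199a and miR-125b names are on the mesenchymal list.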

How the data were processed

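Small RNA was measured in 42 libraries of 12 groups. Per the submitters' processing notes, the authors trimmed reads with Trim Galore and used the builds bosTau8 and UMD3.1 and the package DESeq2, whose versions are not stated. The values deposited by the authors are on a log2 scale, size-factor-normalised and variance-stabilised. Inverting this scale returned whole reads for 100% of 188126 values above the lowest (tolerance 0.01 reads). The absolute read scale takes the smallest spacing in a library as 1 read. Size factors spanned 0.0787 to 13.4. The deposited values cover 12345 rows, all of them detected in NT 2-cell replicate 4, so small RNAs not seen there are not listed. The listing thus favours that library and its group in comparisons with other groups. 0 pairs of libraries were identical.

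Tested were the 12039 rows that 3 or more libraries held 1 log2 unit or more above the table's lowest value. Levels are on the deposited log2 scale, which understates changes of rows with few reads. 1 limma 3.58.1 model in R 4.3.3 covered all 12 groups without covariates (eBayes with trend, 30 residual degrees of freedom, prior median 49.5), with Benjamini-Hochberg adjustment within each of 20 comparisons and 4 differences between them. It was tested on simulated data first. Shares, correlations and counts used Python 3.11.15 with numpy 2.4.6 and pandas 2.3.3, and matplotlib 3.10.9 drew the plots. Library values are given for the row of highest mean of each miRNA name and for called rows, and the 5 most alike rows are named. Mismatched forms, miRNAs of other species and sequences of the miRNAs were not used for these values. The 12 rows and the marker lists were chosen with earlier results of these data known.

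Alternatives were median centring, quantile normalisation, log2(normalised reads + 1), voom on recovered reads, no trend, no filter or a filter of 2 log2 units, library weights, only the groups compared, a replicate block, and leaving out each library. Replicate numbers were checked for pairing by the correlation of deviations from group means. All 3 pairs exceeded 0.1 for IVF derived cells and fibroblasts alone (0.185 to 0.458), and there the block gave 0 calls, as did the model without it.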

Additional observations from a re-analysis of the deposited data

Results flagged for a closer look

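Of 72 combinations of a row with a group of 4 libraries, 6 held a library whose gap to its nearest neighbour, as a share of the group's range, exceeded Dixon's 95% critical value, where chance gives about 1 in 20. In IVF morula replicate 3, the library with the fewest reads, miR-27b-3p stood at the lowest log2 value of 1.368 (0 normalised reads, against 120.5 to 200.6 in the other IVF morulae), and so did the miR-23 row with 3 annotations at 1.368 (0, against 69.8 to 115.2). In IVF morula replicate 1, miR-23b-3p was high at 9.638 (791.6 normalised reads, against 36.8 to 58.5). In NT 2-cell replicate 2, miR-23a-3p was at 1.368 (0 normalised reads, against 11.97 to 16.6), the row shared by miR-27b-3p and miR-27a-3p at 1.368 (0, against 22.1 to 22.7) and miR-27a-3p at 6.026 (60.1, against 174.8 to 215.0).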

How the results depend on the processing

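Of 409 values of called rows under alternative settings, 337 remained called in the same direction, 72 no longer passed and 0 changed direction. Called rows in derived cells against blastocysts numbered 5 in IVF with miRNA read totals, and 0 in NT and 0 in IVF with library weights. Fibroblasts against oocytes gave 11 calls under quantile normalisation, 0 with library weights and 3 with only the groups compared. Derived cells against fibroblasts gave 6 calls in NT and 9 in IVF with library weights, and 1 in NT with miRNA read totals. NT 2-cell against oocyte gave 0 under quantile normalisation, both count models and library weights. IVF 2-cell against oocyte gave 1 with median centring, and IVF morula against IVF 8-cell gave 1 under quantile normalisation. NT blastocysts gave 5 calls against NT morulae with only the groups compared; against oocytes they gave 1 with median centring, 4 under quantile normalisation and 2 with only the groups compared. IVF blastocysts against oocytes gave 4 under quantile normalisation and 1 with only the groups compared. The cause of these changes was not tested.

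Leaving out 1 library in turn gave 5 to 8 calls for NT derived cells against blastocysts, 6 to 9 for IVF, 2 to 7 for fibroblasts against oocytes, 0 to 1 for NT and 0 to 2 for IVF derived cells against fibroblasts, 0 to 1 for NT blastocysts against oocytes, 0 to 1 for IVF 2-cell embryos against oocytes (1 without oocyte replicate 4 or IVF 2-cell replicate 3) and 1 for NT 2-cell embryos against oocytes. With the replicate block, 8 rows were called in NT derived cells against blastocysts, 8 in IVF and 5 in fibroblasts against oocytes. In NT against IVF derived cells the correlations of equally numbered libraries ran from -0.087 to 0.466, and the block gave 0 calls. Whether the numbers pair libraries there or in other comparisons is not known.

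Taken of all listed reads, the mean share of the 12 rows was 3.72% in NT derived cells, 0.329% and 0.350% in NT and IVF blastocysts, 0.233% and 1.09% in NT and IVF morulae (0.149% in IVF without replicate 1, which held 3.92%), 0.143% and 0.162% at the 8-cell stage, 0.0813% and 0.118% at the 2-cell stage and 0.0701% in oocytes. With mismatched forms it was 6.19% of miRNA reads in NT derived cells, and 4.46% and 3.38% in NT and IVF 2-cell embryos. The mean miR-23a share with mismatched forms counted by name was 30.2% in NT derived cells, 32.7% in IVF derived cells and 11.3% in IVF blastocysts. Counted by the base at position 19 it was 53.4% and 54.3% in NT and IVF derived cells, 17.5% and 21.4% in blastocysts, 26.9% in NT morulae, 27.4% and 27.3% at the 8-cell stage, 22.4% and 19.5% at the 2-cell stage and 12.1% in oocytes. Without the row shared with miR-10174-3p it was 80.8% and 80.2% in NT and IVF derived cells, 45.7% and 57.4% in blastocysts, 66.4% and 74.02% in morulae, 69.2% and 79.1% at the 8-cell stage, 56.4% and 64.2% at the 2-cell stage, 61.2% in fibroblasts and 44.1% in oocytes. Depth limits the oocytes and 2-cell embryos most, where several of these rows rest on under 10 reads per library.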
